A study of Mus musculus with 13 samples.

Results

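DNA replication genes were followed in bulk RNA-seq of HSPCs, the mouse bone marrow stem and progenitor cells from which blood is made, across 4 genotypes. The set was given as a list of 46 gene symbols that covers the proteins that load and start the replication helicase, the polymerases with their clamp, the enzymes that supply DNA building blocks, and the factors that rebuild chromatin behind the fork. All 46 symbols were found among the 55421 genes of the deposited tables, and all 46 passed the filter on low counts, which left 19289 genes. Libraries came in 4 groups: double mutant, which the labels give as Setd2 knockout and Srsf2 mutated (n = 3), Setd2 knockout with n = 2, Srsf2 mutated with n = 3 and wild type with n = 2. Setd2 encodes the methyltransferase that puts the trimethyl mark on histone H3 along transcribed genes, and Srsf2 encodes a splicing factor that is recurrently mutated in myelodysplastic syndrome. For the single-cell samples of the series, not analysed here, the labels state Lin- c-Kit+ cells, an allele written Srsf2P95H/+, a floxed Setd2 (Setd2fl/fl), Mx1-Cre in the wild type as well, and pIpC induction 4 weeks before sampling in a bone marrow transplant model. Mx1-Cre is switched on by pIpC in many cell types besides blood, and whether the bulk libraries share alleles, sort, transplant and time with those samples is not stated. The labels give no strain, sex or age and do not say whether replicates were separate mice, so the p-values below measure the spread between these libraries, which may be technical.

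Replication is licensed in G1, when the origin recognition complex (Orc), Cdc6 and Cdt1 load the Mcm helicase onto DNA, and geminin (Gmnn) then holds Cdt1 in check. At the start of S phase Cdc45 and the GINS complex turn the loaded Mcm ring into a moving helicase, primase and the polymerases copy both strands on the Pcna clamp, and the E2F family of transcription factors drives many of these genes. HSPCs pass through rapid divisions on the way to mature blood, and erythroid and myeloid precursors in particular carry high levels of these transcripts while they divide.

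Motifs of the type that E2F factors are known to bind stood in the promoter windows of 15 of the 46 genes. RefSeq promoter windows (GRCm38.p6, 250 bases before to 50 after the annotated start) were given for 38 of the 46 genes, as 45 windows. The other 8 are Gins1, Gins2, Gins4, Gmnn, Mcm4, Pole, Prim2 and Rfc2. The E2F-type spellings searched, on both strands, were TTTCGCGC, TTTGGCGC and TTTCCCGC, of which the first and second can overlap on opposite strands. At least 1 of them stood in 33.3% of the 45 windows, against 1.84% of all 32851 windows of the same length, and the genes with a site were Cdc6, Cdt1, Gins3, Lig1, Mcm3, Mcm5, Mcm6, Mcm7, Orc1, Pola1, Pold1, Pold3, Pole2, Rfc3 and Uhrf1. CCAAT, the box bound by NF-Y, stood in 60% against 37.4%, and TTTGAA, the CHR element of many mitotic genes, in 11.1% against 17.9%. These are matches of letters and do not show binding.

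Upstream stretches of 4 genes are printed because their transcripts moved in different ways in the comparisons below. Mcm5 and Mcm6 stand for the helicase genes that were lower in the mutants, Orc1 for the gene that was higher in them, and Rrm2 for a gene whose direction depended on the comparison. Each run covers the 200 bases before the RefSeq start, 5′ to 3′ on the gene's strand, with capitals for an E2F-type motif or CCAAT on either strand.
Mcm5 (chr8:75109309-75109508, plus strand): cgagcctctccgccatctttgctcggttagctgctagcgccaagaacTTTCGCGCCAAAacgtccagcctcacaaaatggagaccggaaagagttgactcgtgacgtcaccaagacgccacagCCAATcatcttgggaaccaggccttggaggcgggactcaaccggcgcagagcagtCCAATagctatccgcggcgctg
Mcm6 (chr1:128359706-128359905, minus strand): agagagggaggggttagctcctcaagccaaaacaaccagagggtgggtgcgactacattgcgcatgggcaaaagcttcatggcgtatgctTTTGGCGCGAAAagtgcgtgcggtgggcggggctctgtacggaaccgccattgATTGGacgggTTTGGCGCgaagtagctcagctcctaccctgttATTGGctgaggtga
Orc1 (chr4:108579254-108579453, plus strand): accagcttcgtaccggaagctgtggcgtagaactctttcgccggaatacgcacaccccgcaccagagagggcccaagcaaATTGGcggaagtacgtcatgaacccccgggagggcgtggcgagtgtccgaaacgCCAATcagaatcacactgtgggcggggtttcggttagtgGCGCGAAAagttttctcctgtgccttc
Rrm2 (chr12:24708054-24708253, plus strand): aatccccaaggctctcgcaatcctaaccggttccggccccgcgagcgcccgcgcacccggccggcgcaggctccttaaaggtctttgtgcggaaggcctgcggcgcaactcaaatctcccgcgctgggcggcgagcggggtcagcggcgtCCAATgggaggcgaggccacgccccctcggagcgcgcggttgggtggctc
Mcm5 and Mcm6 each showed the 12-base run in which TTTCGCGC and TTTGGCGC overlap on opposite strands, and Mcm6 held a second TTTGGCGC closer to the start. In Orc1 a TTTCGCGC lay on the opposite strand close to the start, while the Rrm2 stretch held a CCAAT and none of the E2F-type spellings. An E2F-type motif was present both in genes that were lower and in a gene that was higher in the mutants. Of the 15 genes with such a motif 10 were called lower in double mutant against Srsf2 mutated libraries, and 9 of the 23 whose windows lacked it. In double mutant against Setd2 knockout libraries these were 12 of 15 and 14 of 23, in Srsf2 mutated against wild type 11 and 17, and in Setd2 knockout against wild type 8 and 12. Of all tested genes 15.9%, 25.8%, 27.8% and 19.9% were called lower in these comparisons, in the order given. Whether genes with and without the motif differed was not tested.

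Total counts ran from 32117387 to 50445434 per library. The set took 0.5911%, 0.5897% and 0.5965% of them in double mutant, 0.8205% and 0.826% in Setd2 knockout libraries, 0.7358%, 0.7445% and 0.7461% in Srsf2 mutated and 0.838% and 0.8416% in wild type libraries. Whole-gene counts of the targeted genes do not check the genotypes, since exons outside a deleted part and a point mutation leave them readable. Setd2 averaged 130.4 ± 0.87 CPM (SD, n = 3) in double mutant and 221.7 ± 12.9 CPM (n = 2) in libraries labelled Setd2 knockout. It averaged 197.1 ± 34.8 CPM (n = 3) in Srsf2 mutated and 151.7 ± 9.63 CPM (n = 2) in wild type libraries. The libraries labelled Setd2 knockout were thus the highest, and Setd2 loss below means the label. CPM is a gene's count relative to the library size after TMM scaling, which sets libraries against each other through genes of middling change. Xist, expressed from an inactive X chromosome, averaged 7.41 CPM in double mutant, 0.598 in Setd2 knockout libraries, 1.78 in Srsf2 mutated and 485.5 in wild type libraries. Y-linked Ddx3y averaged 123.6 CPM in double mutant and 111 CPM in Srsf2 mutated libraries and had no count in the others. The groups thus also differed in sex-linked expression, with Ddx3y counted only with the Srsf2 mutation and Xist high in wild type alone. Where compared groups differ in this way, that difference cannot be told apart from genotype. The spread between libraries of a group, as a biological coefficient of variation, was 0.0774 in double mutant, 0.0562 in Setd2 knockout libraries, 0.194 in Srsf2 mutated and 0.105 in wild type libraries. Strand use of the counting is not given in the sources used here, so genes whose exons overlap a gene on the other strand are uncertain. That holds above all for Fen1 (84.2% of exon bases shared), Gins2 (67.3%), Chaf1a (52.5%) and Orc2 (29.8%).

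Across the set, transcript levels were lowest with both lesions and highest in wild type. The summed level of the 46 genes was 6189, 6135 and 6222 CPM in double mutant, 7510 and 7604 CPM in Setd2 knockout libraries, 7165, 7112 and 7392 CPM in Srsf2 mutated and 8906 and 9006 CPM in wild type libraries. No wild type library was as low as any mutant library, and no double mutant library was as high as any library of the other groups. Gene by gene, in TMM-scaled CPM, the double mutant group had the lowest mean for 31 of the 46 and wild type the highest for 28. Such counts were not made under other scalings or over all tested genes. The sum in Setd2 knockout libraries was 84.4% of that in wild type by CPM, but 97.5% by the authors' deposited FPKM and 98% by the share of all counts, so its size depends on how libraries are scaled. For double mutant against Srsf2 mutated libraries these were 85.6%, 80.2% and 79.8%, and for double mutant against Setd2 knockout libraries 81.8%, 75% and 72%. Srsf2 mutated libraries stood at 80.6%, 91.2% and 88.4% of wild type. In bulk samples fewer dividing cells and less RNA per cell cannot be told apart.

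**Figure D1:**
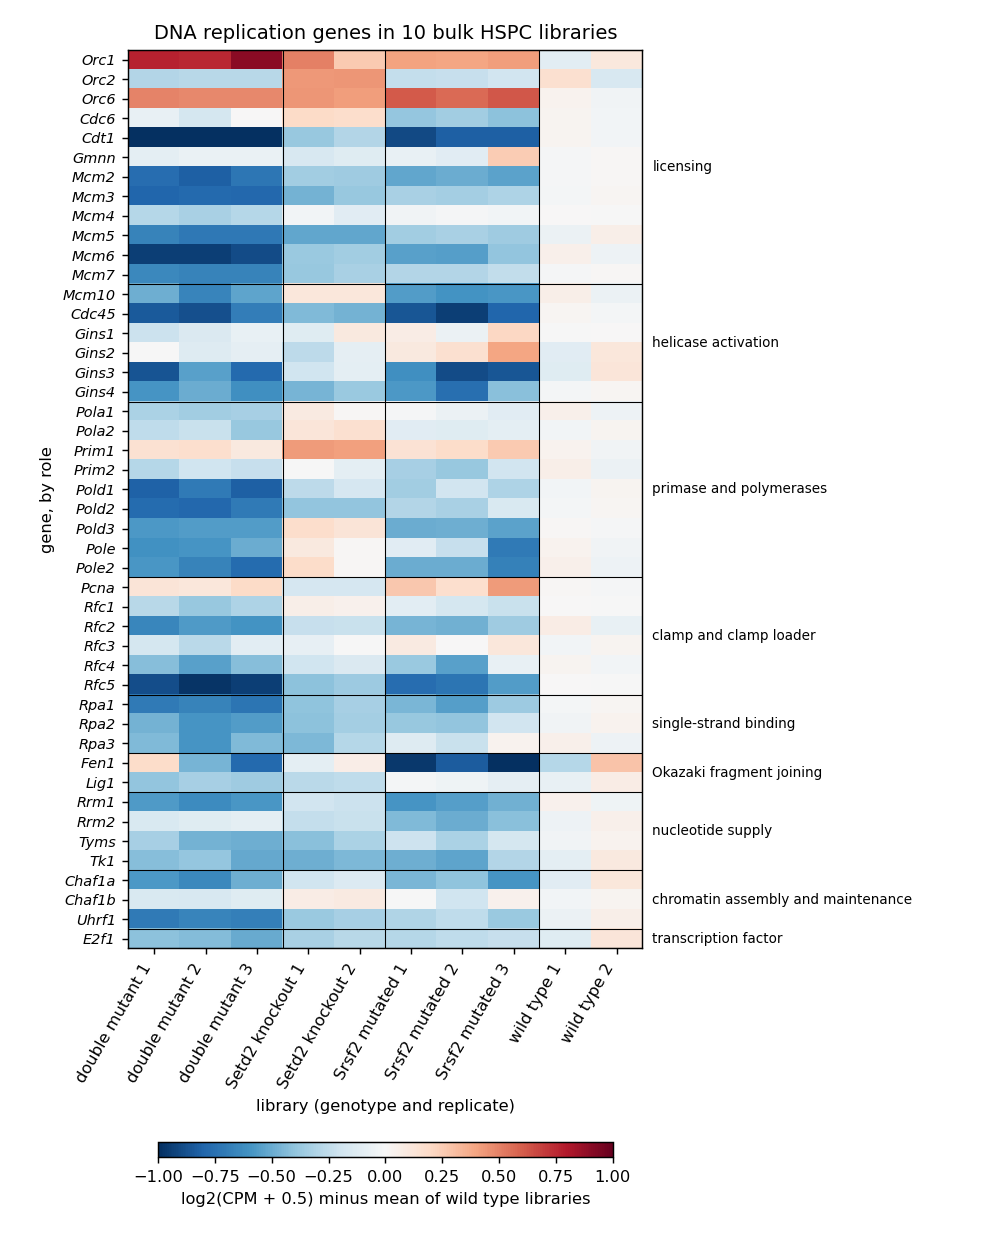
Level of each of the 46 genes (rows, grouped by role) in each of the 10 libraries (columns), as log2(CPM + 0.5) minus the mean of the wild type libraries, with colours capped at 1 in either direction. Most rows are blue in the 3 double mutant libraries, and Orc1, Orc6 and Prim1 are the rows that stay red in all mutant libraries.

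Each gene was tested in 1 quasi-likelihood fit of edgeR over all 10 libraries, with p-values adjusted over the 19289 tested genes, and was called at an adjusted p under 0.05. In double mutant against Srsf2 mutated libraries 22 of the 46 genes were called lower and 4 higher, where 15.9% of all tested genes were called lower and 17.8% higher. Against libraries labelled Setd2 knockout 29 genes were called lower in double mutant libraries and 2 higher, against 25.8% and 26% of all tested genes. In Srsf2 mutated against wild type libraries 32 were called lower and 4 higher, against 27.8% and 28.5%. In libraries labelled Setd2 knockout against wild type 22 were called lower and 4 higher, against 19.9% and 18.7%, but with library totals in place of TMM scaling only 4 stayed lower, 12 were higher and the direction of the median turned. Between 2 groups of 3 libraries, 27 of the 46 genes had every double mutant library below every Srsf2 mutated library and 4 had every one above, where 21.3% and 24% of all tested genes did. The median log2 fold change of the 46 genes was -0.17 in double mutant against Srsf2 mutated and -0.32 in double mutant against Setd2 knockout libraries, beside medians over all tested genes within 0.01 of 0. It was -0.32 in Srsf2 mutated against wild type, beside 0.08 over all tested genes, and -0.18 in Setd2 knockout against wild type, beside 0.04. Comparisons that use the same libraries (wild type or double mutant, for example) are not independent of each other.

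**Figure D2:**
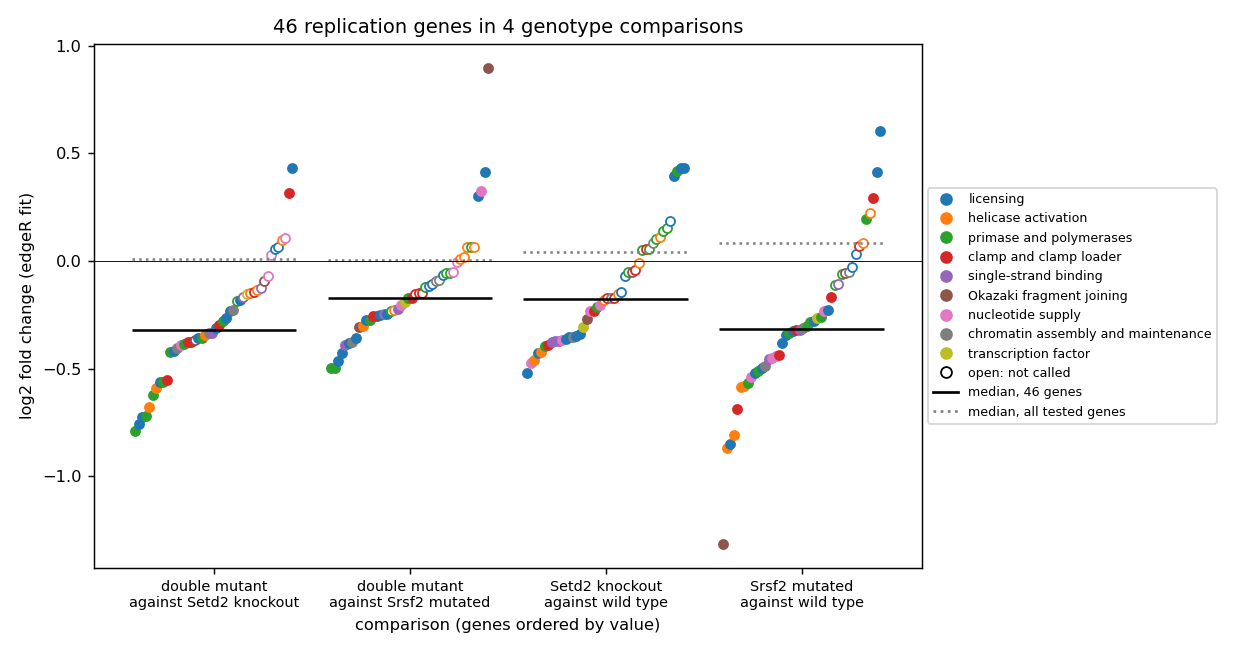
Fitted log2 fold change (y axis) of each of the 46 genes in 4 comparisons (x axis, genes ordered by value within each), coloured by role, filled where called at an adjusted p under 0.05 and open otherwise. The median of the set (solid line) lies below that of all tested genes (dotted line) in all 4, from -0.32 to -0.17, under TMM scaling.

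The Mcm helicase genes moved together. Mcm2 to Mcm7 encode the 6 subunits of the ring that unwinds DNA at the fork. Mcm2 (ENSMUSG00000002870, chr6:88883474-88898780, minus strand, GRCm38) stood at 302, 291 and 311 CPM in double mutant and 404 and 401 CPM in Setd2 knockout libraries. Srsf2 mutated libraries had 357, 363 and 354 CPM and wild type libraries 509 and 518 CPM. Every mutant library lay below both wild type libraries, and the double mutant libraries lay below all others. Mcm2 was lower in double mutant libraries than in Srsf2 mutated ones (log2 fold change -0.25 ± 0.0555 SE, edgeR adjusted p = 0.00224) and than in Setd2 knockout libraries (-0.42 ± 0.0615, adjusted p = 2.89e-05). It was also lower in Srsf2 mutated than in wild type libraries (log2 fold change -0.52 ± 0.0614 SE, edgeR adjusted p = 2.92e-06). In libraries labelled Setd2 knockout its value against wild type was -0.35 ± 0.0679, adjusted p = 0.000729, a call lost with library totals (-0.13, adjusted p = 0.134).

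Mcm6 (ENSMUSG00000026355, chr1:128331590-128359664, minus strand) showed the widest range of the ring. It stood at 407, 407 and 421 CPM in double mutant, 604 and 612 in Setd2 knockout libraries, 536, 532 and 594 in Srsf2 mutated and 807 and 755 in wild type libraries. The groups did not overlap, with double mutant lowest and wild type highest. The change in double mutant was -0.43 ± 0.0613, adjusted p = 4.37e-05 against Srsf2 mutated and -0.56 ± 0.0677, adjusted p = 3.37e-06 against Setd2 knockout libraries by edgeR. Mcm3 had 318, 322 and 320.0 CPM in double mutant and 441, 435 and 446 CPM in Srsf2 mutated libraries. Its drop there was close to that of Mcm6 (log2 fold change -0.46 ± 0.0557 SE, edgeR adjusted p = 7.24e-06). Mcm5 (ENSMUSG00000005410, chr8:75109569-75128439, plus strand) stood at 450.0 and 451 CPM in Setd2 knockout and 619 and 672 CPM in wild type libraries. That was the largest drop of the set in libraries labelled Setd2 knockout (log2 fold change -0.52 ± 0.0693 SE, edgeR adjusted p = 2.66e-05). Mcm5 kept this call under each scaling tried, as did Mcm3 (-0.43 ± 0.0680, adjusted p = 0.000143). Against Setd2 knockout libraries the Mcm5 call of the double mutant (-0.18 ± 0.0629, adjusted p = 0.0228) was lost without double mutant replicate 2 (-0.17, adjusted p = 0.0739) or replicate 3. Median-of-ratios scaling and the stricter filter lost that call as well. Mcm7, called lower in all 4 comparisons, shares 12.6% of its exon bases with other genes, among them the microRNAs Mir25 and Mir93 within the gene. Mcm4 was the exception in the ring. It was lower in double mutant libraries, with -0.28 ± 0.0554, adjusted p = 0.00101 against Srsf2 mutated and -0.23 ± 0.0616, adjusted p = 0.00501 against Setd2 knockout by edgeR. Its values against wild type were -0.03 in Srsf2 mutated and -0.07 in Setd2 knockout libraries, neither of them called.

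On a scale per gene length (the authors' deposited FPKM), the 6 subunits averaged 74.5, 73.9 and 74.9 FPKM in double mutant, 107 and 107.9 in Setd2 knockout libraries, 102.4, 104.7 and 103.4 in Srsf2 mutated and 119.1 and 119.7 in wild type libraries. Mcm2 was the lowest subunit in all 10 libraries, and the highest was Mcm5 or Mcm6. The ratio of the highest to the lowest subunit stayed between 2.2 and 2.5.

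**Figure D3:**
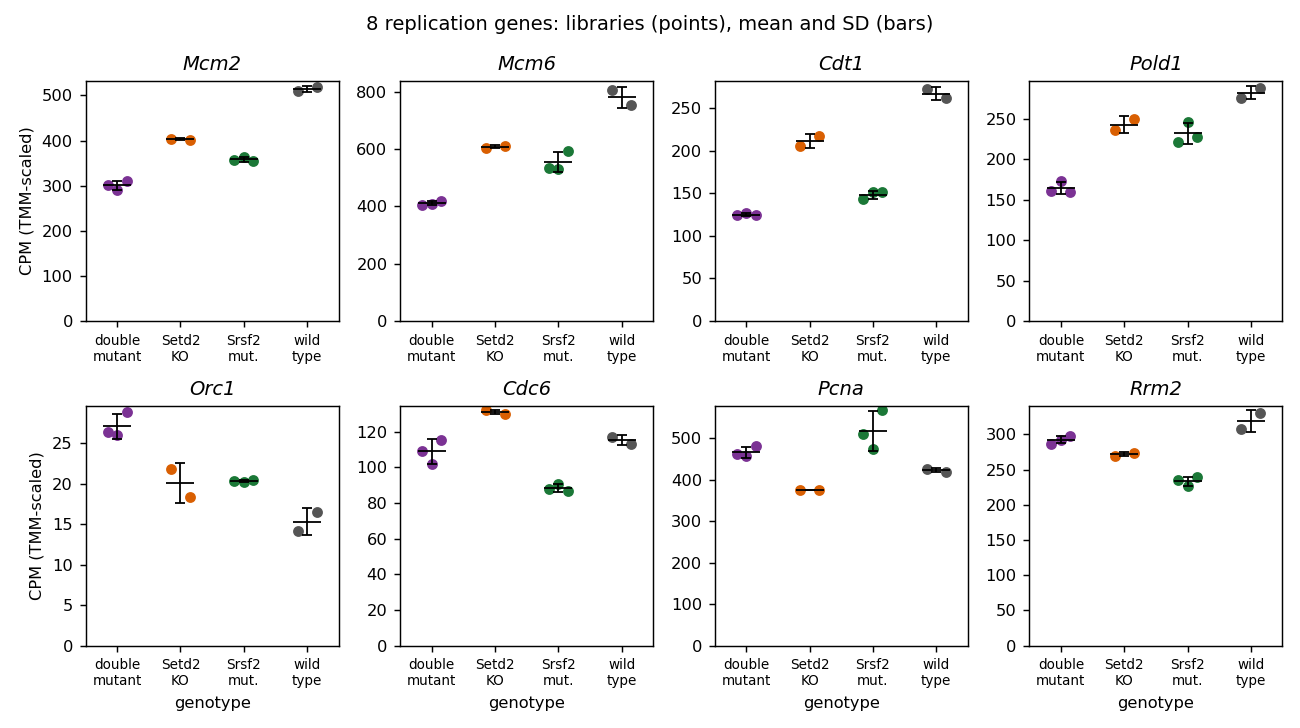
CPM (TMM-scaled, y axis from 0) of 8 replication genes in each library (points) by genotype (x axis), with the group mean and SD (bars; n = 3, 2, 3 and 2). Mcm2, Mcm6, Cdt1 and Pold1 are lowest in double mutant libraries, Orc1 is highest there, and Cdc6 and Rrm2 are lowest in Srsf2 mutated libraries.

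Among the other licensing factors, the loader Cdt1 fell furthest and the origin binding subunit Orc1 rose. Cdt1 (ENSMUSG00000006585, chr8:122568015-122573554, plus strand) brings the Mcm ring to the origin. It stood at 124, 127 and 124 CPM in double mutant and 205 and 218 CPM in Setd2 knockout libraries. Srsf2 mutated libraries had 143, 151 and 151 CPM and wild type libraries 272 and 262 CPM. All 6 libraries with the Srsf2 mutation lay below all 4 without it. Its drop was -0.85 ± 0.0639, adjusted p = 1.86e-08 in Srsf2 mutated against wild type and -0.76 ± 0.0641, adjusted p = 6.2e-08 in double mutant against Setd2 knockout libraries by edgeR. The drop with Setd2 loss was smaller, -0.25 ± 0.0582, adjusted p = 0.00342 in double mutant against Srsf2 mutated libraries, and -0.34 ± 0.0708, adjusted p = 0.00137 in libraries labelled Setd2 knockout against wild type, where the call was lost with library totals (-0.12, adjusted p = 0.195).

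Orc1 (ENSMUSG00000028587, chr4:108579423-108614833, plus strand), the largest subunit of the origin recognition complex, was called higher in all 4 comparisons, the only gene of the set for which that was so. It stood at 26.3, 25.98 and 28.9 CPM in double mutant, 21.8 and 18.3 in Setd2 knockout libraries, 20.3, 20.2 and 20.5 in Srsf2 mutated and 14.1 and 16.4 in wild type libraries. Wild type libraries were lowest and double mutant libraries highest, with both single lesions between them. The log2 fold change of the double mutant was 0.41 ± 0.0947, adjusted p = 0.0028 against Srsf2 mutated and 0.43 ± 0.107, adjusted p = 0.00293 against Setd2 knockout libraries. It was 0.41 ± 0.109, adjusted p = 0.00442 in Srsf2 mutated against wild type and 0.39 ± 0.118, adjusted p = 0.0148 in libraries labelled Setd2 knockout against wild type by edgeR. At these low counts single libraries matter. The call in Setd2 knockout against wild type was lost without Setd2 knockout replicate 1 (0.28, adjusted p = 0.188) or wild type replicate 1 (0.29, adjusted p = 0.141). That in Srsf2 mutated against wild type was lost without wild type replicate 1 (0.30, adjusted p = 0.0805). That in double mutant against Setd2 knockout without Setd2 knockout replicate 2 (0.26, adjusted p = 0.149) or with library totals (0.25, adjusted p = 0.0625). As a ratio within a library, which no scaling can change, Orc1 counts per 100 mean counts of Mcm2 to Mcm7 were 7.72, 7.74 and 8.43 in double mutant, 5.05 and 4.18 in Setd2 knockout libraries, 4.68, 4.62 and 4.58 in Srsf2 mutated and 2.52 and 2.91 in wild type libraries. Relative to the helicase, Orc1 was thus highest in every double mutant library and lowest in both wild type libraries.

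Orc6, a small subunit that joins the complex loosely, followed Orc1 only in part. It stood at 62.5, 61.8 and 61.8 CPM in double mutant, 60.2 and 59.3 in Setd2 knockout libraries, 68, 65.7 and 68.2 in Srsf2 mutated and 45.3 and 43.2 in wild type libraries. All mutant libraries lay above wild type, and the 3 mutant groups were close to each other. It was higher in Srsf2 mutated (0.61 ± 0.0720, adjusted p = 3.15e-06) and in libraries labelled Setd2 knockout (0.43 ± 0.0778, adjusted p = 0.000405) than in wild type by edgeR, while double mutant libraries differed from Srsf2 mutated by -0.12 ± 0.0630, adjusted p = 0.172. Orc2, a core subunit, stood at 42.4, 42.8 and 42.95 CPM in double mutant, 70.5 and 70.9 in Setd2 knockout libraries, 44.1, 44.3 and 45.6 in Srsf2 mutated and 58.1 and 46.6 in wild type libraries. It was high in the libraries labelled Setd2 knockout and lower in every other group, with wild type replicate 1 well above replicate 2. Orc2 was lower in double mutant than in Setd2 knockout libraries (log2 fold change -0.73 ± 0.0874 SE, edgeR adjusted p = 3.45e-06). It was higher in libraries labelled Setd2 knockout than in the wild type ones (log2 fold change 0.43 ± 0.0966 SE, edgeR adjusted p = 0.00223), though 29.8% of its exon bases overlap Nif3l1 on the other strand.

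Cdc6, the ATPase that works beside Orc in loading, stood at 109, 102 and 116 CPM in double mutant, 132 and 130.2 in Setd2 knockout libraries, 87.8, 90.7 and 86.7 in Srsf2 mutated and 117 and 113 in wild type libraries. It was lowest in Srsf2 mutated libraries and highest in Setd2 knockout libraries. It rose in double mutant against Srsf2 mutated libraries (log2 fold change 0.30 ± 0.0633 SE, edgeR adjusted p = 0.00142). It fell in double mutant against Setd2 knockout (-0.27 ± 0.07, adjusted p = 0.00443) and in Srsf2 mutated against wild type libraries (-0.38 ± 0.0701, adjusted p = 0.000236). In libraries labelled Setd2 knockout against wild type its value was 0.19 ± 0.0770, adjusted p = 0.0685, which passed the threshold with library totals (0.40, adjusted p = 0.000926) and upper-quartile scaling (0.28, adjusted p = 0.00986). Gmnn, the inhibitor of Cdt1, stood at 60.9, 62.3 and 62.3 CPM in double mutant, 58.3 and 59.97 in Setd2 knockout libraries, 61.95, 60.4 and 77.8 in Srsf2 mutated and 64.6 and 65.9 in wild type libraries. Apart from Srsf2 mutated replicate 3 all libraries lay close together, and Gmnn was called in none of the comparisons, its values running from -0.14 to 0.06 on the log2 scale with every edgeR adjusted p at 0.308 or above.

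Helicase activation was marked by Cdc45, which joins GINS on the Mcm ring to form the active helicase. Cdc45 (ENSMUSG00000000028, chr16:18780447-18811987, minus strand) stood at 71.3, 69.5 and 79.2 CPM in double mutant, 94.1 and 92.4 in Setd2 knockout libraries, 70.5, 66.6 and 73.7 in Srsf2 mutated and 130.2 and 126 in wild type libraries. The double mutant and Srsf2 mutated libraries overlapped at the bottom, Setd2 knockout lay between, and wild type was highest. Cdc45 fell in Srsf2 mutated against wild type (log2 fold change -0.87 ± 0.0751 SE, edgeR adjusted p = 9.06e-08). It also fell in libraries labelled Setd2 knockout against wild type (-0.46 ± 0.0831, adjusted p = 0.000424, held under each scaling) and in double mutant against Setd2 knockout (-0.35 ± 0.0757, adjusted p = 0.00114). Between double mutant and Srsf2 mutated libraries it differed by 0.06 ± 0.0685, adjusted p = 0.533. Mcm10, which helps the helicase start, had 70.8, 62.7 and 68.8 CPM in double mutant and 108 and 108 CPM in Setd2 knockout libraries and was lower in the double mutant (log2 fold change -0.68 ± 0.0733 SE, edgeR adjusted p = 1.05e-06). Its values for Setd2 loss, 0.02 in double mutant against Srsf2 mutated and 0.11 in Setd2 knockout against wild type libraries, did not pass the test. Of the 4 GINS genes, Gins3 (-0.81) and Gins4 (-0.58) fell in Srsf2 mutated against wild type, Gins2 fell in double mutant against Srsf2 mutated (-0.30), and Gins1 was called in no comparison. The Gins2 call was lost without double mutant replicate 2 (-0.27, adjusted p = 0.0858), double mutant replicate 3 or Srsf2 mutated replicate 3, and Gins2 shares exon bases with Gse1 on the other strand. Gins4 was lower in Setd2 knockout than in wild type libraries (log2 fold change -0.42 ± 0.105 SE, edgeR adjusted p = 0.00479), a call lost without Setd2 knockout replicate 1 (-0.36, adjusted p = 0.0687) or with library totals.

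The primase and polymerase genes were mostly lower in double mutant than in Setd2 knockout libraries, and fewer of them were lower than in Srsf2 mutated libraries. Of the 9 genes, 8 were lower in double mutant than in Setd2 knockout libraries and 4 lower than in Srsf2 mutated libraries, with none higher in either. Of all tested genes 25.8% were lower and 26% higher in the first of these, and 15.9% and 17.8% in the second. Of the 4 called against Srsf2 mutated libraries, Pola2 lost its call with no filter or the 2 groups alone. Leaving out any 1 double mutant library or Srsf2 mutated replicate 2 lost it too. Pold1 (ENSMUSG00000038644, chr7:44532746-44548849, minus strand), the catalytic subunit of the lagging strand polymerase delta, stood at 161, 173 and 159.8 CPM in double mutant and 236 and 250.2 CPM in Setd2 knockout libraries. Srsf2 mutated libraries had 221, 246 and 228 CPM and wild type libraries 276 and 288 CPM. The double mutant libraries were lowest with no overlap. It fell in double mutant against Srsf2 mutated (log2 fold change -0.50 ± 0.0635 SE, edgeR adjusted p = 1.4e-05). Its partner Pold2 had 68.3, 67.5 and 71.1 CPM in double mutant and 94.7, 92.7 and 105 CPM in Srsf2 mutated libraries, a drop of the same size (-0.50 ± 0.0652, adjusted p = 1.77e-05). Pole2, a subunit of the leading strand polymerase epsilon, stood at 21.5, 20.2 and 18.8 CPM in double mutant and 36.9 and 32.7 CPM in Setd2 knockout libraries, the largest drop of the set in that comparison (log2 fold change -0.79 ± 0.0987 SE, edgeR adjusted p = 5.26e-06). Pold3, a small subunit of polymerase delta, had 67.96, 68.6 and 68.7 CPM in double mutant and 114 and 111 CPM in Setd2 knockout libraries (log2 fold change -0.72 ± 0.0644 SE, edgeR adjusted p = 1.24e-07). Neither Pole2 nor Pold3 was called between double mutant and Srsf2 mutated libraries (-0.12 and -0.06).

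Prim1, the catalytic primase subunit, stood at 74.6, 75.3 and 71.8 CPM in double mutant, 90.2 and 88.95 in Setd2 knockout libraries, 73.9, 75.99 and 80.5 in Srsf2 mutated and 68.8 and 65.2 in wild type libraries. Setd2 knockout libraries were highest and wild type lowest. It was higher in libraries labelled Setd2 knockout than in the wild type ones (log2 fold change 0.42 ± 0.0778 SE, edgeR adjusted p = 0.000527). The double mutant was below Setd2 knockout (-0.28 ± 0.0704, adjusted p = 0.00355). In Srsf2 mutated against wild type its rise (0.20 ± 0.0714, adjusted p = 0.0281) was lost without wild type replicate 2 (0.15, adjusted p = 0.18), without wild type replicate 1, or without either Setd2 knockout library. Pola1, the catalytic subunit of polymerase alpha and an X-linked gene, stood at 103, 100.2 and 101 CPM in double mutant, 136 and 129 in Setd2 knockout libraries, 127, 123 and 118 in Srsf2 mutated and 132 and 123 in wild type libraries. Only the double mutant libraries lay below the rest. Pola1 fell in double mutant against Srsf2 mutated libraries (log2 fold change -0.27 ± 0.0604 SE, edgeR adjusted p = 0.00208), and both of those groups expressed Y-linked genes. Pole, the catalytic subunit of polymerase epsilon, is the clearest case of a library apart: Srsf2 mutated replicate 3 had 71.02 CPM beside 107.4 and 99.1 in the other 2. Pole was lower in double mutant against Setd2 knockout libraries (log2 fold change -0.62 ± 0.121 SE, edgeR adjusted p = 0.000421). Its value in double mutant against Srsf2 mutated libraries was -0.23 ± 0.110, adjusted p = 0.119, and without that replicate it was called lower there (-0.39, adjusted p = 5.79e-05) and in the interaction (-0.45, adjusted p = 0.000699). Prim2, the large primase subunit, was called lower in Srsf2 mutated against wild type (log2 fold change -0.30 ± 0.0806 SE, edgeR adjusted p = 0.00457), a call lost without wild type replicate 1 (-0.25, adjusted p = 0.0558).

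The clamp gene Pcna was higher with the Srsf2 mutation, whereas the loader genes Rfc2 and Rfc5 were lower. Pcna (ENSMUSG00000027342, chr2:132249162-132253314, minus strand) encodes the ring that holds polymerases on DNA, and per length it was the highest gene of the set in every group, with means of 186 FPKM in double mutant, 170.4 in Setd2 knockout libraries, 221 in Srsf2 mutated and 165 in wild type libraries. In CPM it stood at 462, 457 and 482 CPM in double mutant and 376 and 375 CPM in Setd2 knockout libraries. Srsf2 mutated libraries had 509.8, 474 and 569 CPM and wild type libraries 426 and 419 CPM. Libraries with the Srsf2 mutation were above those without it. Pcna rose in Srsf2 mutated against wild type (log2 fold change 0.29 ± 0.0755 SE, edgeR adjusted p = 0.00382). It also rose in double mutant against Setd2 knockout libraries (0.31 ± 0.0756, adjusted p = 0.00235), a call lost without Setd2 knockout replicate 1 (0.26, adjusted p = 0.0568) or with library totals (0.13, adjusted p = 0.13). Its value was -0.15 ± 0.0670, adjusted p = 0.102 in double mutant against Srsf2 mutated libraries, called without Srsf2 mutated replicate 2 (-0.21, adjusted p = 0.0202). Upper-quartile scaling (-0.20, edgeR adjusted p = 0.0251) and library totals (-0.25, edgeR adjusted p = 0.00485) also called Pcna lower there. Its value was -0.17 ± 0.0821, adjusted p = 0.112 in libraries labelled Setd2 knockout against wild type, called without Srsf2 mutated replicate 3 (-0.17, adjusted p = 0.0224). Per 100 mean counts of Mcm2 to Mcm7 there were 135, 136 and 141 Pcna counts in double mutant, 86.9 and 85.6 in Setd2 knockout libraries, 117, 109 and 127 in Srsf2 mutated and 76.2 and 74.2 in wild type libraries. These ratios did not overlap between any of the groups.

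Rfc5, a subunit of the loader that opens the Pcna ring, stood at 78.95, 74.2 and 76.1 CPM in double mutant, 110.3 and 114 in Setd2 knockout libraries, 86.2, 87.99 and 99.2 in Srsf2 mutated and 147 and 146 in wild type libraries. The groups did not overlap, and the order was double mutant, Srsf2 mutated, Setd2 knockout and wild type, from low to high. It fell in all 4 comparisons, most in Srsf2 mutated against wild type (log2 fold change -0.69 ± 0.0732 SE, edgeR adjusted p = 9.54e-07). Of the 5 loader genes, Rfc2 and Rfc5 were called lower in all 4 comparisons, with 15.1% and 10.7% of exon bases shared with a gene on the other strand. The Rfc2 calls in double mutant against Srsf2 mutated (as -0.15, adjusted p = 0.17 without double mutant replicate 1) and in Setd2 knockout against wild type (as -0.14, adjusted p = 0.169 with upper-quartile scaling) were lost under several alternatives. Rfc5 lost its call in Setd2 knockout against wild type with library totals (-0.17, adjusted p = 0.0963). Rfc1 and Rfc4 were lower in double mutant against Setd2 knockout (-0.38 and -0.30) and in Srsf2 mutated against wild type (-0.17 and -0.32). Of these 4 calls only that of Rfc1 in double mutant against Setd2 knockout held under all alternatives run. Rfc1 lost its call in Srsf2 mutated against wild type under each other scaling, each other filter, DESeq2 and the 2 groups alone, and without any 1 of 8 libraries (as -0.17, adjusted p = 0.105 without wild type replicate 1). Rfc4 lost it there with upper-quartile scaling, library totals, the stricter filter and the 2 groups alone, and without Srsf2 mutated replicate 1 or 2 or wild type replicate 1 (-0.30, adjusted p = 0.108) or 2. In double mutant against Setd2 knockout Rfc4 lost its call with median-of-ratios scaling, the stricter filter and DESeq2, and without any 1 double mutant library (as -0.25, adjusted p = 0.116 without replicate 2) or Setd2 knockout replicate 2. Rfc3 was lower in double mutant against Srsf2 mutated (-0.26), a call lost without double mutant replicate 2 (-0.21, adjusted p = 0.075). The single-strand binding genes Rpa1, Rpa2 and Rpa3, whose products coat unwound DNA, were all lower in double mutant libraries than in Srsf2 mutated ones, with log2 fold changes of -0.25, -0.22 and -0.39. The Rpa2 call was lost without double mutant replicate 2 (-0.20, adjusted p = 0.0972) or replicate 3. Rpa3, with the largest of these changes, had 26.8, 24.2 and 26.9 CPM in double mutant and 33.4, 31.2 and 37.6 CPM in Srsf2 mutated libraries (log2 fold change -0.39 ± 0.0894 SE, edgeR adjusted p = 0.00273). Lig1, which seals Okazaki fragments, had 215, 224 and 221 CPM in double mutant and 278, 274 and 265 CPM in Srsf2 mutated libraries and was lower in the double mutant (log2 fold change -0.31 ± 0.0595 SE, edgeR adjusted p = 0.000743).

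Fen1, the flap nuclease of Okazaki fragments, was listed at only 2.97, 1.71 and 1.28 CPM in double mutant, 2.35 and 2.69 in Setd2 knockout libraries, 1.07, 1.21 and 0.861 in Srsf2 mutated and 2 and 3.22 in wild type libraries. These low values, for a gene needed in every S phase, stand beside an overlap of 84.2% of its exon bases with genes on the other strand, chiefly Gm10143. The call in double mutant against Srsf2 mutated libraries (log2 fold change 0.90 ± 0.324 SE, edgeR adjusted p = 0.043) was lost without double mutant replicate 1 (0.51, adjusted p = 0.263) and without double mutant replicate 2, either Setd2 knockout library, or Srsf2 mutated replicate 1 or 3. That in Srsf2 mutated against wild type (-1.31 ± 0.348, adjusted p = 0.00457) was lost without wild type replicate 2 (-0.93, adjusted p = 0.0956).

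Of the 4 nucleotide supply genes, Rrm2 was called higher and Tyms lower in double mutant against Srsf2 mutated libraries, while all 4 were lower than in wild type with either single lesion. With library totals only Tk1 kept that call in libraries labelled Setd2 knockout. Rrm2 (ENSMUSG00000020649, chr12:24708241-24714146, plus strand) encodes the small subunit of ribonucleotide reductase, which makes deoxynucleotides and is made in S phase, and Rrm1 the large subunit. Rrm2 stood at 287, 293 and 298 CPM in double mutant, 270.1 and 274 in Setd2 knockout libraries, 235, 227 and 239 in Srsf2 mutated and 308 and 331 in wild type libraries. Srsf2 mutated libraries were lowest, and double mutant libraries lay between Setd2 knockout and wild type. It rose in double mutant against Srsf2 mutated libraries (log2 fold change 0.32 ± 0.0574 SE, edgeR adjusted p = 0.000331). It fell in Srsf2 mutated against wild type (-0.45 ± 0.0635, adjusted p = 1.84e-05) and had 0.10 ± 0.0642, adjusted p = 0.188 in double mutant against Setd2 knockout libraries. DESeq2 (0.14, adjusted p = 0.04), the stricter filter (0.16, edgeR adjusted p = 0.032) and the 2 groups alone (0.11, edgeR adjusted p = 0.0176) called it higher there. With the label Setd2 knockout its value against wild type was -0.23 ± 0.0701, adjusted p = 0.0161, and the call was lost with library totals (-0.01, adjusted p = 0.89), without either Setd2 knockout library, or without wild type replicate 2 (-0.18, adjusted p = 0.104). Upper-quartile scaling (-0.14, edgeR adjusted p = 0.131) and the stricter filter (-0.12, edgeR adjusted p = 0.14) lost it as well. Rrm1 stood at 382, 366 and 377 CPM in double mutant and 496 and 486 CPM in Setd2 knockout libraries. Srsf2 mutated libraries had 376, 385 and 406 CPM and wild type libraries 582 and 548 CPM. The double mutant and Srsf2 mutated libraries were close together and below the other groups. It fell with the Srsf2 mutation, by -0.39 ± 0.0641, adjusted p = 9.16e-05 in double mutant against Setd2 knockout and -0.54 ± 0.0640, adjusted p = 3.04e-06 in Srsf2 mutated against wild type libraries by edgeR. Between double mutant and Srsf2 mutated it differed by -0.05 ± 0.0578, adjusted p = 0.543. In libraries labelled Setd2 knockout against wild type its call (-0.20 ± 0.0707, adjusted p = 0.0324) was lost without any 1 of 7 libraries, as without Setd2 knockout replicate 1 (-0.20, adjusted p = 0.143), and held without Srsf2 mutated replicates 2 or 3 or wild type replicate 2.

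Tk1, the thymidine kinase of dividing cells, stood at 109, 112 and 102 CPM in double mutant, 104 and 107 in Setd2 knockout libraries, 104, 101 and 119 in Srsf2 mutated and 136 and 157 in wild type libraries. The 3 mutant groups overlapped and all their libraries were below wild type. It fell in libraries labelled Setd2 knockout against wild type (log2 fold change -0.47 ± 0.0933 SE, edgeR adjusted p = 0.000839), under each scaling tried, and in Srsf2 mutated against wild type (-0.44 ± 0.0844, adjusted p = 0.000359). Tyms, which makes thymidylate, was lower in double mutant libraries than in Srsf2 mutated ones (log2 fold change -0.20 ± 0.0684 SE, edgeR adjusted p = 0.0311), a call lost without double mutant replicate 2 (-0.18, adjusted p = 0.124) or 3. Its call in Srsf2 mutated against wild type was lost with upper-quartile scaling, library totals, the stricter filter or the 2 groups alone. Leaving out wild type replicate 2 lost it too. That in Setd2 knockout against wild type was lost with library totals or without Setd2 knockout replicate 1.

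Chromatin duplication and the transcription factor E2f1 completed the set. Uhrf1, which carries DNA methylation through replication, stood at 271, 281 and 277 CPM in double mutant, 344 and 353 in Setd2 knockout libraries, 360.3, 373 and 343 in Srsf2 mutated and 426 and 463 in wild type libraries. Double mutant libraries were lowest and wild type highest, with the single lesions between. Uhrf1 fell in double mutant against Srsf2 mutated (log2 fold change -0.38 ± 0.0598 SE, edgeR adjusted p = 0.000123) and in double mutant against Setd2 knockout libraries (-0.33 ± 0.0663, adjusted p = 0.000488). The chromatin assembly factor subunits Chaf1a (-0.40) and Chaf1b (-0.23) were lower in double mutant than in Setd2 knockout libraries, and neither was called against Srsf2 mutated libraries. The Chaf1b call was lost without Setd2 knockout replicate 2 (-0.27, adjusted p = 0.0617), double mutant replicate 1 or double mutant replicate 2.

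E2f1, the activating E2F factor, stood at 78.2, 76.9 and 73.1 CPM in double mutant and 83.2 and 85.8 CPM in Setd2 knockout libraries. Srsf2 mutated libraries had 85.2, 87.02 and 88.6 CPM and wild type libraries 95.7 and 113 CPM. Wild type replicate 2 was well above replicate 1, and double mutant libraries were lowest. It was lower in double mutant libraries than in Srsf2 mutated ones (log2 fold change -0.19 ± 0.0701 SE, edgeR adjusted p = 0.0444), a call lost without any 1 of the double mutant libraries (with -0.16, adjusted p = 0.17 without replicate 3) or without Srsf2 mutated replicate 2. Median-of-ratios scaling (edgeR adjusted p = 0.0511) and the stricter filter lost it as well. Against wild type it fell in libraries labelled Setd2 knockout (-0.31 ± 0.0854, adjusted p = 0.0102) and in Srsf2 mutated libraries (-0.26 ± 0.0775, adjusted p = 0.00867), and both calls were lost without wild type replicate 2 (-0.18, adjusted p = 0.161 and -0.14, adjusted p = 0.186). Both were also lost with upper-quartile scaling (edgeR adjusted p = 0.0623 and 0.0864), library totals and the stricter filter, and that in Srsf2 mutated libraries with the 2 groups alone. The call in Setd2 knockout against wild type was also lost without either Setd2 knockout library. Against Setd2 knockout libraries E2f1 in the double mutant had -0.15 ± 0.0780, adjusted p = 0.117, which passed the threshold with library totals and with upper-quartile scaling.

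Taking the comparisons side by side, 12 genes were called lower in all 4 (Mcm2, Mcm3, Mcm5, Mcm6, Mcm7, Cdt1, Pold1, Pold2, Rfc2, Rfc5, Rpa1 and Uhrf1). How many of all tested genes were lower in all 4 was not counted, and each group enters 2 of these comparisons. For libraries labelled Setd2 knockout against wild type, only Mcm3 and Mcm5 of these 12 kept the call with library totals. In Srsf2 mutated against wild type Pold2 lost its call with upper-quartile scaling, library totals, the stricter filter and the 2 groups alone. Pold1 lost it there with library totals and the stricter filter, and Mcm7 with the stricter filter. Single libraries decided 3 of the 12. Rfc2 lost its call in double mutant against Srsf2 mutated without Srsf2 mutated replicate 3 (-0.13, adjusted p = 0.0782) or any 1 double mutant library, and in Setd2 knockout against wild type without wild type replicate 1 (-0.16, adjusted p = 0.195) or either Setd2 knockout library. Pold1 lost its call in Setd2 knockout against wild type without Setd2 knockout replicate 1 (-0.16, adjusted p = 0.311) and without any other library except Srsf2 mutated replicates 2 and 3. Mcm5 lost its call in double mutant against Setd2 knockout as given above. Called lower in 3 were Cdc45, Rpa2, Rrm1, Tyms and E2f1. Called in both directions were Cdc6, Orc2, Prim1, Rrm2 and Fen1, and called in none Gins1 and Gmnn. The effect of Setd2 loss was measured in 2 comparisons that share no library, though Xist was high in wild type libraries alone. Of the 22 genes lower in double mutant against Srsf2 mutated and the 22 lower in Setd2 knockout against wild type, 17 were the same, 77.3% of each list. For all tested genes the shared lower calls made up 35.8% of the double mutant list and 28.7% of the Setd2 knockout list. The set was called lower more often than all tested genes (22 of 46 in each, against 15.9% and 19.9%), which alone raises its overlap. With library totals only Mcm3 and Mcm5 of the 17 kept the Setd2 knockout call. The Srsf2 mutation was likewise compared without shared libraries, but Y-linked genes were counted only in groups with it, so the 2 cannot be told apart. Of the 29 genes lower in double mutant against Setd2 knockout and the 32 lower in Srsf2 mutated against wild type, 24 were the same, which is 82.8% and 75% of the lists, beside 64.7% and 60.1% for all tested genes. Here too the set was called lower more often (29 and 32 of 46, against 25.8% and 27.8%). The overlaps of the set and of all genes are thus not on one footing, and neither was tested. Orc1 was higher in all of these comparisons.

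The effect of Setd2 loss differed with the Srsf2 background for 10 of the 46 genes. The difference between double mutant against Srsf2 mutated and Setd2 knockout against wild type was tested as an interaction in the same edgeR fit. Of the 46 genes 4 were called higher and 6 lower, in both directions a smaller share than over all tested genes (16.7% and 15.2%). Rrm2 rose with Setd2 loss in the mutated background (0.32) and had -0.23 in the unmutated one (difference 0.56 ± 0.0906 SE, edgeR adjusted p = 0.000188). Cdc45 (difference 0.52 ± 0.108 SE, edgeR adjusted p = 0.00143) and Tk1 (difference 0.47 ± 0.120 SE, edgeR adjusted p = 0.0071) fell in the unmutated background alone by call, with 0.06 and -0.007 in the mutated one. Prim1, Orc2 and Orc6 rose with Setd2 loss in the unmutated background and were not called in the mutated one, where their values were -0.05, -0.06 and -0.12. The edgeR test of the difference gave -0.47 ± 0.1, adjusted p = 0.00176 for Prim1, -0.50 ± 0.125, adjusted p = 0.00619 for Orc2 and -0.55 ± 0.1, adjusted p = 0.000504 for Orc6. Pola1 (-0.33 ± 0.0952, adjusted p = 0.0157), Pola2 (-0.31 ± 0.0977, adjusted p = 0.0226) and Pold1 (-0.28 ± 0.1, adjusted p = 0.0422) had the lower values in the mutated background by edgeR. Gins4 had the higher (0.43 ± 0.136, adjusted p = 0.0231). By single libraries, Pold1 lost its interaction call without any 1 of 6 (as -0.24, adjusted p = 0.0747 without Srsf2 mutated replicate 2), Gins4 without any 1 of 5 and Tk1 without Setd2 knockout replicate 1 (0.39, adjusted p = 0.0709) or wild type replicate 2. Pola1 lost it without Setd2 knockout replicate 1 (-0.34, adjusted p = 0.0564) or wild type replicate 2, and Pola2 without double mutant replicate 3 (-0.26, adjusted p = 0.0695), Setd2 knockout replicate 2 or wild type replicate 1. Rrm2 and the 6 lower genes kept their calls under all 4 scalings, whereas Cdc45, Tk1 and Gins4 lost theirs with library totals, and Tk1 (0.32, adjusted p = 0.0515) and Gins4 (0.29, adjusted p = 0.12) also with upper-quartile scaling. None of the helicase genes Mcm2 to Mcm7 was called here, though with library totals Mcm3, Mcm4, Mcm6 and Mcm7 were called lower and with upper-quartile scaling Mcm4.

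**Figure D4:**
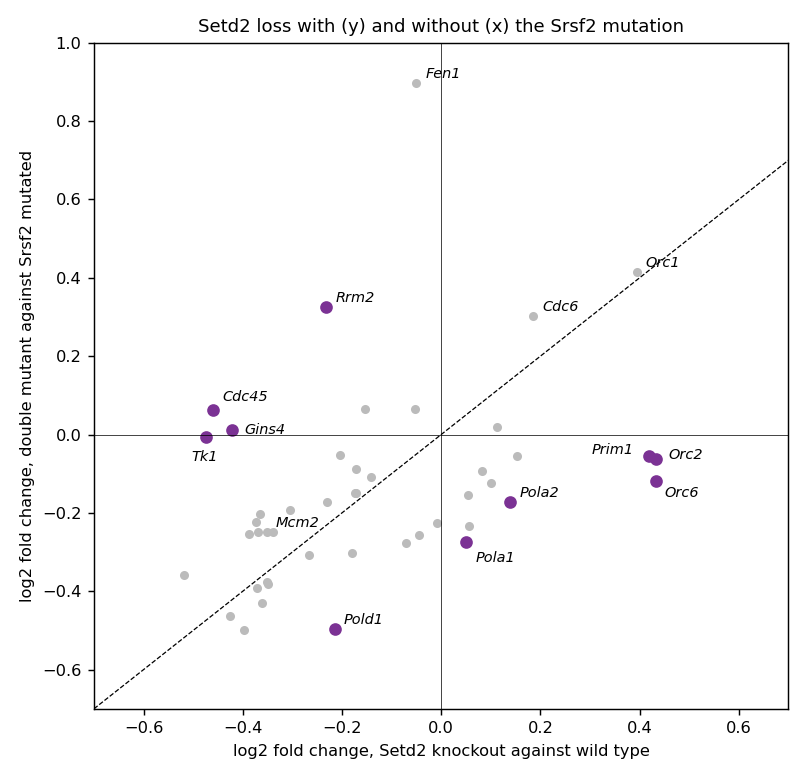
Log2 fold change with Setd2 loss in the Srsf2 mutated background (double mutant against Srsf2 mutated, y axis) and in the unmutated background (Setd2 knockout against wild type, x axis) for the 46 genes, with a dashed line of equal effect. The 10 genes whose 2 effects differed by the interaction test are drawn in purple, with Rrm2 above the line at 0.32 and Orc2, Orc6 and Prim1 below it at the right.

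Among 94 other genes of the pathway, listed by role, 36 were lower and 20 higher in double mutant against Srsf2 mutated libraries, and 51 were lower and 16 higher in double mutant against Setd2 knockout libraries. Of all tested genes 15.9% were lower and 17.8% higher in the first of these, and 25.8% and 26% in the second. In Srsf2 mutated against wild type 36 were lower and 17 higher, against 27.8% and 28.5% of all tested genes. In libraries labelled Setd2 knockout against wild type 19 were lower and 27 higher, against 19.9% and 18.7%, where library totals gave 8 lower and 44 higher. The balance in Srsf2 mutated against wild type turned with upper-quartile scaling to 24 lower and 25 higher and with library totals to 24 and 27, and in both double mutant comparisons lower calls outnumbered higher ones under all 4 scalings. The other genes of the replication machinery, 31 in all, numbered 4 lower and 12 higher in Setd2 knockout against wild type, and 1 and 20 with library totals. From here the 3 largest called changes in each direction among pathway genes are given. Recql4, a helicase that acts in origin firing, had 54.4 ± 1.63 CPM in Setd2 knockout and 30.5 ± 2.19 CPM in wild type libraries (log2 fold change 0.83 ± 0.101 SE, edgeR adjusted p = 1.08e-05). Atr, the checkpoint kinase of stalled forks, had 82.5 ± 3.28 CPM in Setd2 knockout and 44.3 ± 7.32 CPM in wild type libraries (log2 fold change 0.90 ± 0.118 SE, edgeR adjusted p = 2.32e-05). Cyclin E1 (Ccne1), which drives entry into S phase, had 63.1 ± 1.75 CPM in Setd2 knockout and 34.4 ± 0.0125 CPM in wild type libraries (log2 fold change 0.87 ± 0.0935 SE, edgeR adjusted p = 2.98e-06). Recql4, Atr and Ccne1 were thus all higher in libraries labelled Setd2 knockout, while the inhibitor Cdkn2c (-1.56), E2f2 (-1.03) and cyclin D3 (Ccnd3, -0.93) fell there.

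E2F partners and cyclins were among the pathway genes with the largest changes. E2f2 is an activating E2F that is abundant in red cell precursors. It had 362 ± 3.82 CPM in double mutant and 162 ± 4.25 CPM in Srsf2 mutated libraries (log2 fold change 1.16 ± 0.0868 SE, edgeR adjusted p = 2.91e-08), beside 48.4 ± 0.772 CPM in Setd2 knockout and 99.0 ± 21.7 CPM in wild type libraries. Its log2 fold change in double mutant against Setd2 knockout was 2.90. It was far the highest in double mutant libraries, where E2f1 was lowest. Tfdp2, a partner of E2F factors, had 133 ± 2.33 CPM in double mutant and 69 ± 3.16 CPM in Srsf2 mutated libraries (log2 fold change 0.95 ± 0.0662 SE, edgeR adjusted p = 1.29e-08). Samhd1, which breaks down deoxynucleotides, had 365 ± 0.577 CPM in double mutant and 174 ± 3.72 CPM in Srsf2 mutated libraries (log2 fold change 1.06 ± 0.0553 SE, edgeR adjusted p = 4.17e-10). Falling in the same comparison were cyclin D2 (Ccnd2, -0.68), Shmt1 (-0.60) and the Pcna partner Pclaf (-0.56).

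Cdkn1a, the p21 inhibitor that binds Pcna, had 109 ± 8.26 CPM in Srsf2 mutated and 15.2 ± 2.20 CPM in wild type libraries (log2 fold change 2.84 ± 0.120 SE, edgeR adjusted p = 1.98e-11). In the double mutant it was also high, with 78.5 ± 6.22 CPM in double mutant and 9.79 ± 1.29 CPM in Setd2 knockout libraries (3.002 ± 0.123, adjusted p = 8.25e-12). Cdkn1b (0.998) and Cdc25b (0.96) rose in Srsf2 mutated against wild type too, and Cdc25b was higher in double mutant than in Setd2 knockout libraries (2.005). Rad1 (-1.39), Orc5 (-1.15) and Skp2 (-1.14) fell in Srsf2 mutated against wild type. Myc, which drives growth and S phase entry, had 135 ± 8.62 CPM in double mutant and 406 ± 3.88 CPM in Setd2 knockout libraries (log2 fold change -1.58 ± 0.0721 SE, edgeR adjusted p = 3.01e-11). Mycn (-1.42) and Skp2 (-1.30) were lower in double mutant than in Setd2 knockout libraries as well. In the interaction test E2f2 (2.19), Cdkn2c (1.49) and Samhd1 (1.20) were higher, and Ccnd1 (-1.19), Atr (-1.16) and Recql4 (-0.84) lower.

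Mitotic genes went the other way from the replication genes in double mutant against Srsf2 mutated libraries. Of 30 mitotic genes, 15 were higher and 1 lower in double mutant against Srsf2 mutated libraries, the comparison in which 22 of the 46 replication genes were lower, and with library totals 12 were higher and 2 lower. Of all tested genes 17.8% were higher and 15.9% lower there with TMM. Of the same 30, 8 were higher and 6 lower in double mutant against Setd2 knockout, near the shares of all tested genes (26% and 25.8%). That balance turned with upper-quartile scaling to 7 and 9 and with library totals to 6 and 14. In Srsf2 mutated against wild type 2 were higher and 21 lower, and in libraries labelled Setd2 knockout against wild type 3 were higher and 14 lower, which turned with library totals to 12 and 6. Of all tested genes 28.5% were higher and 27.8% lower in the first of these, and 18.7% and 19.9% in the second. Mki67, the marker of dividing cells, averaged 1430 ± 33.1 CPM in double mutant, 833.8 ± 37.4 in Setd2 knockout libraries, 878.2 ± 166 in Srsf2 mutated and 731.1 ± 4.55 in wild type libraries. It was higher in double mutant libraries than in Srsf2 mutated ones (log2 fold change 0.70 ± 0.1 SE, edgeR adjusted p = 4.28e-05). The counts of the 46 replication genes divided by those of the 30 mitotic genes, a ratio free of scaling, were 1.32, 1.33 and 1.32 in double mutant, 1.9 and 1.96 in Setd2 knockout libraries, 1.93, 1.92 and 2.12 in Srsf2 mutated and 2.1 and 2.14 in wild type libraries. The double mutant libraries stood below all others on this ratio.

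Markers of other blood cells moved with these comparisons. Erythroid markers (20 listed, 19 tested) summed to between 23160 and 24660 CPM in double mutant, 2980 and 3020 in Setd2 knockout libraries, 6565 and 8305 in Srsf2 mutated and 977 and 1060 in wild type libraries. All 19 were higher in double mutant libraries than in Srsf2 mutated ones. Early neutrophil markers (12) summed to between 9128 and 9313 CPM in double mutant, 16680 and 17950 in Setd2 knockout libraries, 11550 and 13380 in Srsf2 mutated and 30110 and 30520 in wild type libraries. Against wild type all 12 were lower both in Srsf2 mutated libraries and in libraries labelled Setd2 knockout, and 10 of 12 were lower in each double mutant comparison. Late neutrophil markers (12) summed to between 36380 and 37190 CPM in double mutant, 6600 and 7179 in Setd2 knockout libraries, 15850 and 19500 in Srsf2 mutated and 18320 and 25570 in wild type libraries. B lymphoid markers (13) summed to between 369.5 and 385 CPM in double mutant, 117 and 121 in Setd2 knockout libraries, 1256 and 1331 in Srsf2 mutated and 140.2 and 161 in wild type libraries. No marker of these 4 lists was at 0 in a whole group. The labelled HSPC type was checked with 16 stem cell markers, which summed to between 560.5 and 576.5 CPM in double mutant, 466 and 467 in Setd2 knockout libraries, 478.6 and 496 in Srsf2 mutated and 484.7 and 491.5 in wild type libraries. By gene, 7 of the 16 were lower and 4 higher in double mutant against Srsf2 mutated libraries, and 12 were lower and 2 higher in double mutant against Setd2 knockout libraries, so the sum does not stand for most members. In Srsf2 mutated against wild type 6 were lower and 3 higher, and in Setd2 knockout against wild type 3 and 4. All marker counts stand beside the shares of all tested genes given above for each comparison. Of the other 5 lists, the highest sum in any library was 1380 CPM for monocyte and macrophage, 1360 CPM for mast and basophil, 242.1 CPM for megakaryocyte, 146 CPM for endothelial and stromal and 75.7 CPM for T and NK markers, and 1 marker, Cd3g, was at 0 in wild type. The part of these cell types in the levels of replication genes was not tested.

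Scaling of the libraries set the direction in libraries labelled Setd2 knockout against wild type. TMM factors ran from 0.935 to 1.09 and were above 1 in Setd2 knockout and below 1 in wild type and double mutant libraries. With library totals the median over all tested genes moved by 0.22 on the log2 scale in that comparison, and of the 46 genes 12 were called higher (with Cdc6, Mcm10, Pola1, Pola2 and Pold3 among those gained) and 4 lower (Cdc45, Mcm3, Mcm5 and Tk1), with Pold1 and Rrm1 changing sign. Relative to the median of all tested genes, the median of the set stood at -0.22, and 33 of the 46 genes lay below that median. A scaling shifts all genes nearly alike, so it leaves this difference in place by construction. The stricter filter on low counts, which sets the genes against more abundant ones, gave -0.073 with 28 of 45 genes below. In double mutant against Srsf2 mutated libraries the set stood at -0.18 relative to all tested genes, and 20 genes were called lower under all 4 scalings. Under all 4, 27 genes were lower in double mutant against Setd2 knockout libraries and 23 in Srsf2 mutated against wild type.

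**Figure D5:**
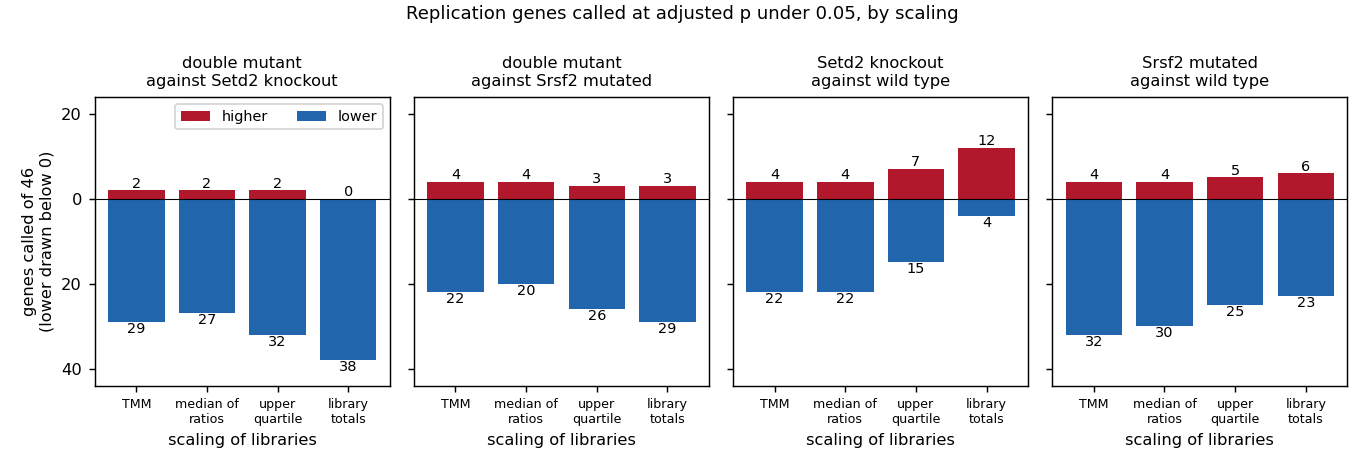
Number of the 46 genes called higher (red, above 0) and lower (blue, below 0) at an adjusted p under 0.05 in 4 comparisons, with libraries scaled by TMM, median of ratios, upper quartile or totals alone (x axis). Lower calls outnumber higher ones throughout, except in Setd2 knockout against wild type with library totals, where 12 are higher and 4 lower.

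In the authors' deposited tables, 22 of the 46 genes were lower and 4 higher at an adjusted p under 0.05 in Setd2 knockout against wild type, and 30 lower and 4 higher in Srsf2 mutated against wild type. For double mutant against Srsf2 mutated the authors' deposited table had none of the 46 past that threshold and a median log2 fold change of -0.25 for them. Over all genes it had 957 higher and 519 lower. The edgeR fit called 22 lower and 4 higher there. DESeq2 over the 10 libraries called 23 lower and 4 higher, and edgeR on the 2 groups alone 20 lower and 3 higher. The cause of that gap was not tested.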

How the data were processed

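Bulk RNA-seq libraries (10, in 4 genotypes) were analysed, and another 3 samples, from single cells, were not used here. The tables, 1 for each of 3 comparisons, hold raw read counts per gene, as deposited by the authors, with FPKM computed by the authors per gene length and depth. They also hold the authors' log2 fold changes and adjusted p-values, in the deposited tables, and a library shared by 2 tables held the same counts in both. The submitters' processing notes name the counters featureCounts 2.0.1 and HTSeq 0.9.1, the aligners HISAT2 2.0.5 and STAR 2.6.1a, and SAMtools 1.7, Seurat 3.2.0 and DESeq2 1.22.2, with the build GRCm38, but not which step each served. The strand setting of the counting is not given in the sources used here.

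The counts were fitted with edgeR 4.0.16 in R 4.3.3, with its default filter by group, TMM factors, 1 quasi-likelihood model over the 10 libraries without covariates, and Benjamini-Hochberg adjustment over all 19289 tested genes, for 4 pairs of genotypes and their interaction. Standard errors are the log2 fold change divided by the square root of F. CPM use the TMM-scaled library size. The fit was tested on simulated data with known fold changes. Alternatives were other scalings, no filter or a stricter one (at least 5 CPM in at least 2 libraries), the 2 groups alone, DESeq2 1.42.0, a replicate block, deposited FPKM and each library left out in turn; library totals were added after seeing the data.

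The members and lists were chosen with earlier results of these data known. Members were all accounted for by role. Named with values in every comparison were Mcm2, Pcna, Cdt1, Cdc6, Gmnn, E2f1 and Rrm2, then up to 5 called members in each direction per comparison and the 3 pathway genes in each direction with the largest called change and at least 4 CPM in 1 group. Promoter windows came from RefSeq (GRCm38.p6) by symbol, and gene positions and exon overlaps from the annotation of that build.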

Additional observations from a re-analysis of the deposited data

Results flagged for a closer look

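For 10 of the 46 genes the effect of Setd2 loss differed between the Srsf2 mutated and the unmutated background by the interaction term of the edgeR fit. These were 4 higher and 6 lower, in both directions a smaller share than over all tested genes (16.7% and 15.2%). The effect was more positive in the mutated background for Rrm2 (difference in log2 fold change 0.5564, adjusted p = 0.000188), Cdc45 (0.5226, adjusted p = 0.00143), Tk1 (0.4683, adjusted p = 0.0071) and Gins4 (0.4334, adjusted p = 0.0231). It was more negative for Orc6 (-0.5503, adjusted p = 0.000504), Orc2 (-0.4969, adjusted p = 0.00619), Prim1 (-0.4738, adjusted p = 0.00176), Pola1 (-0.3253, adjusted p = 0.0157), Pola2 (-0.3123, adjusted p = 0.0226) and Pold1 (-0.2812, adjusted p = 0.0422). The calls of Rrm2, Orc2, Orc6, Prim1 and Cdc45 held without each library in turn, and of these Cdc45 lost its call with library totals.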

How the results depend on the processing

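In libraries labelled Setd2 knockout against wild type the counts called higher and lower and the median log2 fold change depended on scaling. Upper-quartile scaling gave 7 higher with a median of -0.085, library totals gave 12 higher, 4 lower and a median of 0.040, a stricter filter gave 8 higher and a median of -0.071, and the 2 groups alone a median of -0.16. In Srsf2 mutated against wild type the median was -0.2865 with median-of-ratios scaling, -0.215 with upper-quartile scaling, -0.183 with library totals and -0.2866 with DESeq2, and the stricter filter gave 21 lower and -0.172. In double mutant against Srsf2 mutated it was -0.228 with upper-quartile scaling and -0.273 with library totals. In double mutant against Setd2 knockout it was -0.287 with median-of-ratios scaling and with DESeq2, -0.368 with upper-quartile scaling, -0.506 with library totals, which left 0 higher, and -0.255 with the stricter filter. For the interaction upper-quartile scaling gave 2 higher, 11 lower and -0.146, library totals 1, 24 and -0.317, and the stricter filter 10 lower and -0.104. The Pcna interaction turned to -0.29 with library totals. Library totals shift the median of all tested genes by -0.10 in double mutant against Srsf2 mutated, -0.18 in double mutant against Setd2 knockout and -0.32 for the interaction. The shift was 0.13 in Srsf2 mutated and 0.22 in Setd2 knockout libraries, each against wild type. The share of all calls that were higher was then 38.2% in double mutant against Srsf2 mutated (52.8% with TMM), 37.5% in double mutant against Setd2 knockout (50.2%), 60.6% in Srsf2 mutated against wild type (50.6%), 73.4% in Setd2 knockout against wild type (48.4%) and 24.4% for the interaction (52.4%). With upper-quartile scaling it was 59.5% in Setd2 knockout against wild type and 37.6% for the interaction. By deposited FPKM the summed level of double mutant was 80.2% of Srsf2 mutated and 75% of Setd2 knockout libraries, and against wild type it was 91.2% in Srsf2 mutated and 97.5% in Setd2 knockout libraries.

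Leaving out 1 library at a time, Setd2 knockout against wild type gave 3 to 6 higher, 12 to 23 lower (12 without Setd2 knockout replicate 1) and medians from -0.259 to -0.1459. Srsf2 mutated against wild type gave 2 to 5 higher (2 without wild type replicate 1), 26 to 32 lower and -0.3316 to -0.2839. Double mutant against Srsf2 mutated gave 3 to 4 higher, 15 to 24 lower and -0.2156 to -0.1617. Double mutant against Setd2 knockout gave 1 to 2 higher, 26 to 31 lower and -0.3921 to -0.2961, and the interaction 2 to 5 higher, 4 to 10 lower (10 without Srsf2 mutated replicate 3) and -0.07589 to 0.02996. Replicate numbers did not pair the libraries: deviations of 13 same-numbered pairs correlated between -0.0852 and 0.0875, none over 0.1. With the replicate block the counts higher and lower were 4 and 23 in double mutant against Srsf2 mutated, 2 and 30 in double mutant against Setd2 knockout, 4 and 30 in Srsf2 mutated against wild type, 4 and 22 in Setd2 knockout against wild type and 4 and 6 for the interaction, with Rfc1 and Pole no longer called in Srsf2 mutated against wild type. Groups of 2 or 3 libraries and the low counts of Fen1 limit precision.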
